A study of Mus musculus with 19 samples.

Results

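FMRP, the RNA-binding protein whose loss causes fragile X syndrome, was mapped on RNA of mouse CA1 by CLIP, in which crosslinking with ultraviolet light lets the RNA bound by a protein be purified and sequenced as tags. The account here covers 297 transcripts out of 49932 listed in any of 19 libraries. They were chosen by their own tag counts: at least 800 tags summed over the 16 Cre-positive libraries and fewer than 10 summed over the 3 noCre libraries. Of the 310 transcripts that met both thresholds, 10 mitochondrial transcripts and 3 further transcripts were left out by ID. The values that chose them are given below as a description and were not tested.

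All libraries carry the genotype label Camk2a-Cre x Fmr1 cTag, in which FMRP bears a tag that Cre recombinase switches on, and Cre is driven by the Camk2a promoter, active in excitatory forebrain neurons. The opto groups received AAV-ChR2, a virus bringing the light-gated channel channelrhodopsin-2, and the control groups received AAV-Control. Slices of hippocampus were light-activated and crosslinked, and CA1 tissue was collected with cycloheximide, a drug that stalls ribosomes. There were 4 opto and 4 control libraries at 30 min and 4 of each at 5 min after activation, and the 3 noCre libraries measured the background of the purification. The noCre libraries bear the Cre-positive genotype and cell type labels and were taken as noCre from title and treatment. Age, sex and the number of animals per library are not in the labels, nor is it said that replicates came from separate animals, so p-values measure the spread between libraries, which may be technical.

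FMRP is found with polyribosomes in neurons and is best known as a brake on translation of the mRNAs it binds, many of which encode synaptic proteins. It also binds along coding sequence, so a long or abundant mRNA can gather many tags. The deposited files name transcripts by Ensembl ID alone, and the gene table used alongside holds none of these IDs. Transcripts are therefore given by ID, with no gene name, function, length or sequence, and markers of neurons or other cells were not analysed here. A count of tags below is per transcript and not per length, so it ranks tags and not binding per base. In these tissue libraries, fewer tagged cells, less RNA per cell and less FMRP on each RNA cannot be told apart.

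Opto 30 min replicate 1, the shallowest Cre-positive library with 20456 tags, stood apart from the others in these transcripts, and the mean share and the counts at 30 min are given with and without it.

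Together the 297 transcripts held 468728 of the 2137473 tags of the 16 Cre-positive libraries, or 21.9%. They are 0.595% of the listed transcripts and 10.3% of the 2871 that passed the filter on low counts, which all 297 passed. Their tags ran from 802 to 9325 with a median of 1211, an 11.6-fold range. A total of 57 transcripts had more than 2000 tags and 102 had fewer than 1000. The 6 with the most tags held 7.56% of the tags of the group and the first 20 held 18.8%, so the tags were spread over many members. Just inside the lower threshold lay ENSMUST00000111838 with 802 tags and ENSMUST00000041804 with 803, and just outside it ENSMUST00000131872 with 799 and ENSMUST00000036161 with 798.

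The 297 IDs do not stand for as many independent measurements. No transcript among them equalled another in all 19 libraries, but many came close. Sets were formed by a summed absolute difference of counts under 5% over the 16 libraries. A transcript joined a set if it was that close to any 1 of its members, so 2 members can differ by more. ENSMUST00000108908 and ENSMUST00000108910, with 1255 and 1385 tags, are in 1 set. In this way 125 of the 297 fell in 58 sets of 2 to 4 transcripts. Counting each set once leaves 230 profiles. At a limit of 1% there were 32 sets holding 65 transcripts. At 10% there were 58 sets holding 170, the largest a chain of 21, which leaves 185 profiles, so the number depends on the limit. ENSMUST00000093165 and ENSMUST00000165599, with 3658 and 3659 tags, differed by 1 tag in all. ENSMUST00000028386 and ENSMUST00000111760, the fourth and the fifth by tags, had 5207 and 5196. Whether such sets are isoforms that were credited with the same tags was not tested. Kept once per set, the group held 17.2% of the tags in the 30 min controls, against 22.1% with all members.

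The share of the 297 transcripts in each library varied little between the groups. It was 20.9%, 22.7%, 22.7% and 22.3% in the 30 min controls, a mean of 22.1% ± 0.846 (SD, n = 4). The 30 min opto libraries gave 19.4%, 25.1%, 23.2% and 22.5%, a mean of 22.6% ± 2.37 (SD, n = 4), so their spread took in all of the controls; without replicate 1 the mean was 23.6%. At 5 min the controls gave 21.9%, 24.0%, 21.5% and 21.2%, a mean of 22.2% ± 1.29 (SD, n = 4). The opto libraries at 5 min gave 21.8%, 21.5%, 21.2% and 20.5%, a mean of 21.3% ± 0.556 (SD, n = 4), inside or just below the range of their controls. Replicate 1 of opto at 30 min, the shallowest library, had the lowest share of the 16, and replicate 2 of the same group had the highest.

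**Figure D1:**
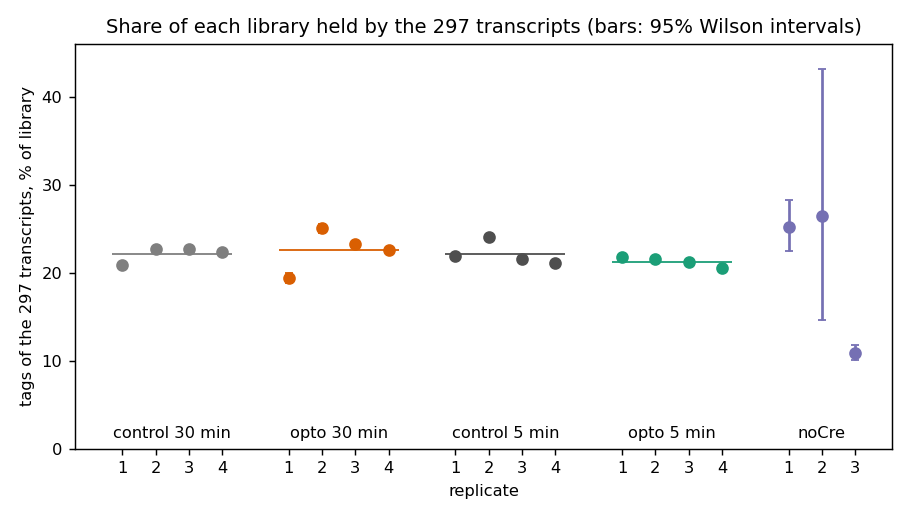
Tags of the 297 transcripts as a percentage of all tags in each of the 19 libraries, by group and replicate, with 95% Wilson intervals (counting error only) and a line at the mean of each Cre-positive group. The 16 Cre-positive libraries lie between 19.4% and 25.1%, noCre replicates 1 and 2 lie at 25.3% and 26.5%, and noCre replicate 3 lies at 10.9%.

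The background was low in number and uneven in kind. The noCre libraries held 839 tags of these transcripts among 6478, or 13.0%. At the share seen in the Cre-positive libraries 1421 would have been counted, so the ratio was 0.591. This ratio rested on noCre replicate 3, which held 606 of the 839. In that library the transcripts made up 10.9% of 5557 tags (95% Wilson interval 10.1 to 11.8%), below every Cre-positive library. In noCre replicate 1 they made up 224 of 887 tags, or 25.3% (95% Wilson interval 22.5 to 28.2%). Replicate 2 held 34 tags, 9 of them from these transcripts (26.5%, Wilson limits 14.6 and 43.1%). Both shares were as high as in the Cre-positive libraries, and without replicate 3 the ratio was 1.15. Whether replicate 1 holds only background, as its title says, or also Cre-positive material was not tested, so its share and the ratio of 1.15 carry that limit. Little background is therefore a statement about the number of noCre tags and about replicate 3, and not about a lower share in every noCre library. The 20 transcripts with 800 or more tags and 10 or more noCre tags held 12.7% of tags in replicate 3, against 7.55% in replicate 1 and 4.65% to 7.84% in the Cre-positive libraries. Both sets were chosen by their noCre tags, most of which come from replicate 3, so the selection bears on their shares there.

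The rule itself kept noCre counts low, and for most of the 297 the limit of 10 noCre tags asks for little. A transcript needs 3300 tags in the 16 libraries before an equal share would bring 10 noCre tags, and 272 of the 297 had fewer. The count of noCre tags exceeded the equal share in 48 transcripts, 25 of them among the 102 with 800 to 1000 tags and 1 among the 45 with more than 2500. The ratio of counted tags to the equal share was 0.659 in the former class and 0.519 in the latter. ENSMUST00000020706, with the most tags, had 8 noCre tags where an equal share gives 28.3. Under the rule, the 25 transcripts above 3300 tags could not exceed their equal share. The difference between the classes and this value are in part set by that. A further 45 transcripts had 0 noCre tags, for which the limit on the share in the pooled noCre tags is 0.0463%. Of these, 22 had a higher share than that in the Cre-positive libraries. This sorts the 45 by their tags in the 16 libraries. It is not a test, as the rule used the noCre counts. Just inside the limit, ENSMUST00000028102 and ENSMUST00000060537 had 9 noCre tags on 4217 and 3783 tags. Just outside it, ENSMUST00000100497 and ENSMUST00000070198 had 10 on 860 and 2096.

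**Figure D2:**
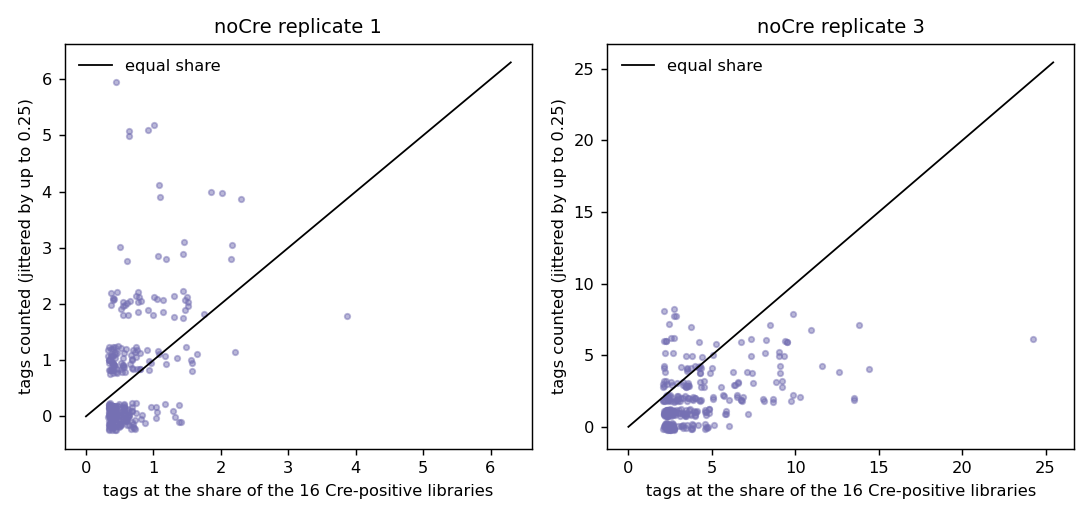
Tags counted in noCre replicate 1 (left) and replicate 3 (right) for each of the 297 transcripts, against the tags that the transcript's share in the 16 Cre-positive libraries would give; the line marks equal shares. The limit of fewer than 10 noCre tags places transcripts with the most tags below the line in replicate 3; in replicate 1, 123 of the 297 lie above it, and in replicate 3, 35 do.

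The order of the transcripts by tags held across libraries in part. Between 2 libraries the Spearman correlation of their CPM had a median of 0.742 and ran from 0.456 to 0.944. The lowest was between control 30 min replicate 1 and control 5 min replicate 2. Without opto 30 min replicate 1 the median was 0.748. CPM is tags per 1000000 tags on the transcripts that passed the filter on low counts, scaled by the TMM method. The points are transcripts that share libraries, and the values are descriptive. Only 4 transcripts were among the first 20 in all 16 libraries, and 42 were among the first 20 in at least 1.

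ENSMUST00000020706 was the first of the 297 in 13 of the 16 libraries. It had 5125, 6540, 8282 and 7103 CPM in the 30 min controls and 5094, 9952, 9295 and 7887 CPM in opto at 30 min. At 5 min it had 6010, 8615, 5719 and 5797 CPM in the controls and 6339, 6904, 4374 and 5633 CPM in opto. The groups overlapped at both times, and neither difference passed (edgeR adjusted p = 0.777 at 30 min and 1.00 at 5 min).

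ENSMUST00000090826 came next. It had 6586, 4202, 4031 and 3704 CPM in the 30 min controls and 6919, 4434, 4208 and 4211 CPM in opto at 30 min. Replicate 1 was high in both groups, and the other libraries lay close together. At 5 min its mean was 3694 ± 773 CPM in the controls and 3348 ± 567 CPM in opto (SD, n = 4). ENSMUST00000028525 had the same shape, with 5884 CPM in replicate 1 and 3193 to 3728 CPM in the other 30 min controls, and 6158 CPM in replicate 1 and 3598 to 3991 CPM in the other opto libraries. Neither differed between opto and control beyond the spread of the libraries (edgeR adjusted p of 0.947 to 1.00 over both times).

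ENSMUST00000080210 was the least steady of the first 6, ranking between first and 123rd of the 297. It had 5599, 3798, 3469 and 4768 CPM in the 30 min controls and 4410, 1921, 2842 and 2570 CPM in opto, lower in 4 of 4 same-numbered pairs, with 1 opto library inside the range of the controls. Its log2 fold change was -0.61 (SE 0.28, edgeR adjusted p = 0.590). At 5 min it had 3681, 1058, 3658 and 2743 CPM in the controls and 4205, 3293, 4419 and 2520 CPM in opto, higher in 3 of 4 pairs. The low control library rests on 28 tags. ENSMUST00000028386 had 4009 ± 374 CPM in the 30 min controls, 3917 ± 469.7 CPM in opto at 30 min, 3532 ± 496 CPM in the 5 min controls and 3318 ± 156 CPM in opto at 5 min (SD, n = 4). Its near-identical partner ENSMUST00000111760 had 3988 ± 373, 3867 ± 496, 3531 ± 495 and 3312 ± 153 CPM in the same order.

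**Figure D3:**
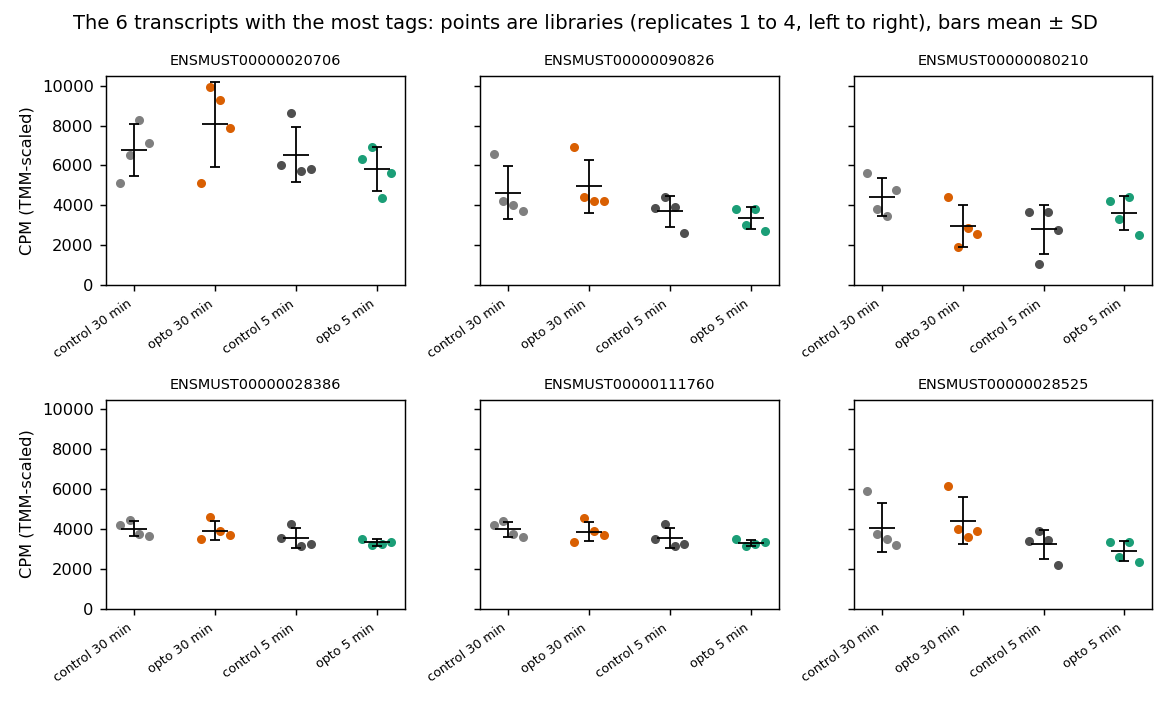
CPM of the 6 transcripts with the most tags in each of the 16 Cre-positive libraries; points are replicates 1 to 4 from left to right, and bars are the mean ± SD of 4 libraries. Opto and control libraries overlap in every panel at both times, and replicate 1 stands above the others at 30 min for ENSMUST00000090826 and ENSMUST00000028525.

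The libraries differed in how well they measured these transcripts. Total tags ran from 20456 to 341445, and the median transcript of the 297 had 10 tags in replicate 1 of opto at 30 min, 18 in replicate 2, 25 in replicate 4 and 190 in replicate 1 of the 5 min controls. Each library was set against the mean of the other 3 of its group. The median absolute deviation over the 297 was 0.60 on the log2 scale in opto 30 min replicate 1, where 68 transcripts were off by more than 1 log2 unit, and 0.45 in replicate 2. It was 0.15 to 0.39 in the other 14 libraries. Over all tested transcripts the deviation was larger in every library. There it was 0.90 in opto 30 min replicate 1, 0.84 in replicate 2 and 0.66 in replicate 4, and 0.28 to 0.56 in the rest. Of the within-group variance of the 297, 46.4% lay on 1 component, and opto 30 min replicate 1 carried 65.0% of its squared weight. It also held the largest share of tags on mitochondrial transcripts, 7.35% where the lowest library held 1.40%, and the part of this in the results was not tested. In that library ENSMUST00000049149 had 0 tags against a mean of 530.5 CPM in the other 3. A count of 0 there allows 0.0147% of all tags of the library, a share that is not on the CPM scale. ENSMUST00000173523 had 2889 CPM against 520 CPM. The deviations of opto 30 min replicate 1 and those of control 30 min replicate 1 had a Pearson correlation of 0.432 over the 297 transcripts.

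**Figure D4:**
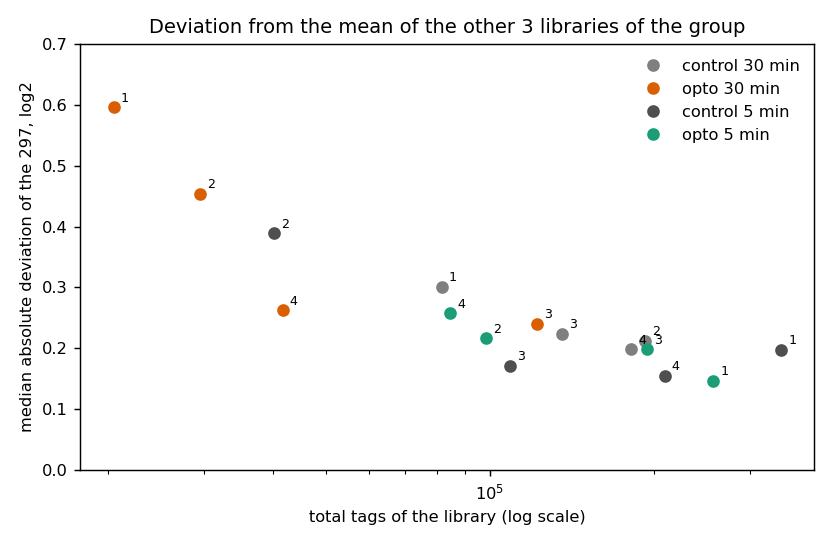
Median absolute deviation of the 297 transcripts from the mean of the other 3 libraries of the group (log2 CPM, with 0.5 added before the logarithm), against the total tags of the library on a log scale; numbers are replicates. The 2 shallowest libraries, opto 30 min replicates 1 and 2, have the largest deviations, 0.60 and 0.45.

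The spread differed among the transcripts as well. Their biological coefficient of variation (the spread between libraries of a group beyond counting error, from edgeR) had a median of 0.159, against 0.172 for all 2871 tested, and 27 of the 297 (9.09%) were above 0.25, against 14.1% of all tested. The median of the 20 background-rich transcripts was 0.220. ENSMUST00000077879 was the steadiest, at 0.109, with 645, 606, 595 and 619 CPM in the 30 min controls, and 380.2, 689.7, 488 and 571 CPM in opto at 30 min. At 5 min it had 617, 567, 792 and 599 CPM in the controls and 518, 561, 563 and 504 CPM in opto, so its groups overlapped at 30 min and every opto library lay below every control at 5 min. ENSMUST00000173523 varied most, at 0.386. It had 1405, 862, 1134 and 924 CPM in the 30 min controls and 2889, 246, 634 and 678 CPM in opto at 30 min. The opto libraries thus lay both above and below all controls.

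The first comparison asked whether activation moved FMRP tags toward or away from these transcripts at 30 min. None of the 297 passed an adjusted p of 0.05 in edgeR's quasi-likelihood test, adjusted over all 2871 tested, of which 0.0348% passed. The smallest adjusted p among the 297 was 0.361. At an unadjusted p under 0.05, 36 of the 297 (12.1%) differed, 13 higher and 23 lower in opto, against 8.39% of all tested (2.93% higher and 5.47% lower). None passed in DESeq2 or limma. In DESeq2 27 had an unadjusted p under 0.05, 11 higher and 16 lower, against 6.23% of all tested. In limma with quality weights 30 did, 16 higher and 14 lower, against 7.59%. With the replicate number as a random block in limma 40 did, 20 higher and 20 lower, against 11.5%. The standard errors of the 297 were smaller, with a median of 0.23 on the log2 scale against 0.39 over all tested. The median log2 fold change was 0.016, with 155 transcripts above 0 and 142 below, and that of all tested was -0.022. Fold changes of the 297 ran from -1.30 to 0.80, and 4 exceeded 1 in size. In 16 transcripts (5.39%), 5 higher and 11 lower, the 4 opto and the 4 control libraries did not overlap, against 4.74% of all tested. Single libraries moved the count and its direction. When opto 30 min replicate 1 was left out there were 45, 27 higher and 18 lower, against 8.84% of all tested. Without opto 30 min replicate 4 there were 16, 1 higher and 15 lower, against 5.78%. Without control 30 min replicate 1 there were also 16, 5 higher and 11 lower, against 6.19%, and without control 30 min replicate 2 there were 23, 5 higher and 18 lower, against 6.91%. With the replicate number as a block there were 44, 21 higher and 23 lower, against 9.16% of all tested, and 9 of all tested passed.

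ENSMUST00000076623 had the smallest p of those lower in opto. It had 1082, 730.2, 419 and 495 CPM in the 30 min controls and 456, 246, 305 and 249.8 CPM in opto, where it rests on 5 to 25 tags. It was lower in 4 of 4 pairs, and the highest opto library lay inside the range of the controls. Its log2 fold change was -1.13 (SE 0.32, edgeR adjusted p = 0.361). The fold change ran from -1.34 to -0.89 when a library was left out. With all libraries thinned to the depth of the shallowest it was -0.50. At 5 min the transcript had 604 ± 155 CPM in the controls and 680.1 ± 134 CPM in opto (SD, n = 4).

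ENSMUST00000103186 had 1272, 1111, 1090 and 1138 CPM in the 30 min controls and 608, 689.7, 866 and 785 CPM in opto. Every opto library lay below every control, and the means were 737 ± 112 and 1153 ± 81.7 CPM (SD, n = 4). The log2 fold change was -0.57 (SE 0.20, edgeR adjusted p = 0.516). It is in a set of 2 with near-identical counts.

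On the other side, ENSMUST00000120129 had 854, 924, 1079 and 874 CPM in the 30 min controls and 2053, 2365, 1244 and 928 CPM in opto. It was higher in 4 of 4 pairs, with the lowest opto library inside the range of the controls. The difference on the log2 scale was 0.73 (SE 0.23, edgeR adjusted p = 0.434). The 2 highest opto libraries are the 2 shallowest, with 27 and 48 tags of this transcript. ENSMUST00000083103 had 304, 435, 595 and 495 CPM in the controls and 304, 493, 829 and 1356 CPM in opto. Its groups overlapped, and the log2 fold change was 0.80 (SE 0.29, edgeR adjusted p = 0.516), or 0.42 without opto 30 min replicate 4.

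The same comparison at 5 min gave smaller differences. None of the 297 passed in edgeR, nor did any of the 2871 tested (0%). At an unadjusted p under 0.05, 2 of the 297 (0.673%) differed, both higher in opto, against 1.85% of all tested (0.975% higher and 0.871% lower). None passed in DESeq2 or limma, and 0 had an unadjusted p under 0.05 in DESeq2, against 1.08% of all tested. With the replicate number as a block 9 did, 6 higher and 3 lower, against 3.66% of all tested, and none passed. Leaving out a control library gave 5 for replicate 1 (2.92% of all tested) and 0 for replicate 3 (1.54%), and leaving out an opto library gave 0 for replicate 2 (1.52%) and 1 for replicate 4 (1.72%). The median log2 fold change was -0.051, with 115 transcripts above 0 and 182 below, and that of all tested was -0.00077. Without control 5 min replicate 2 the median was -0.0068, and with all libraries thinned to the depth of the shallowest it was 0.015 over the 283 transcripts still tested. Fold changes ran from -0.45 to 0.82, and none exceeded 1 in size. The groups did not overlap in 6 of the 297 (2.02%), 1 higher and 5 lower, against 2.23% of all tested.

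The 2 that differed at an unadjusted p, ENSMUST00000173499 and ENSMUST00000173523, have parallel values and large spread. ENSMUST00000173499 had 402, 680.1, 519 and 585 CPM in the 5 min controls and 535, 1457, 456 and 1458 CPM in opto. Replicates 2 and 4 of opto were high and replicates 1 and 3 lay among the controls. Its log2 fold change was 0.82 (SE 0.39, edgeR adjusted p = 1.00). ENSMUST00000173523 had 465, 756, 559.6 and 677 CPM in the controls and 615, 1699, 456 and 1620 CPM in opto, with the same replicates high, and its log2 fold change was also 0.82 (SE 0.39, edgeR adjusted p = 1.00). Without opto 5 min replicate 2 these fold changes were 0.54 for ENSMUST00000173499 and 0.50 for ENSMUST00000173523. Among those lower in opto, ENSMUST00000159078 had 575, 1285, 859.9 and 789.8 CPM in the controls and 637, 622, 548 and 576 CPM in opto (log2 fold change -0.45, SE 0.22, edgeR adjusted p = 1.00). ENSMUST00000161008 had 659, 945, 819 and 649 CPM in the controls and 603, 425, 715 and 539.9 CPM in opto, lower in 4 of 4 pairs (log2 fold change -0.34, SE 0.19, edgeR adjusted p = 1.00). Both overlapped between the groups, and without control 5 min replicate 2 the fold change of ENSMUST00000159078 was -0.28.

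**Figure D5:**
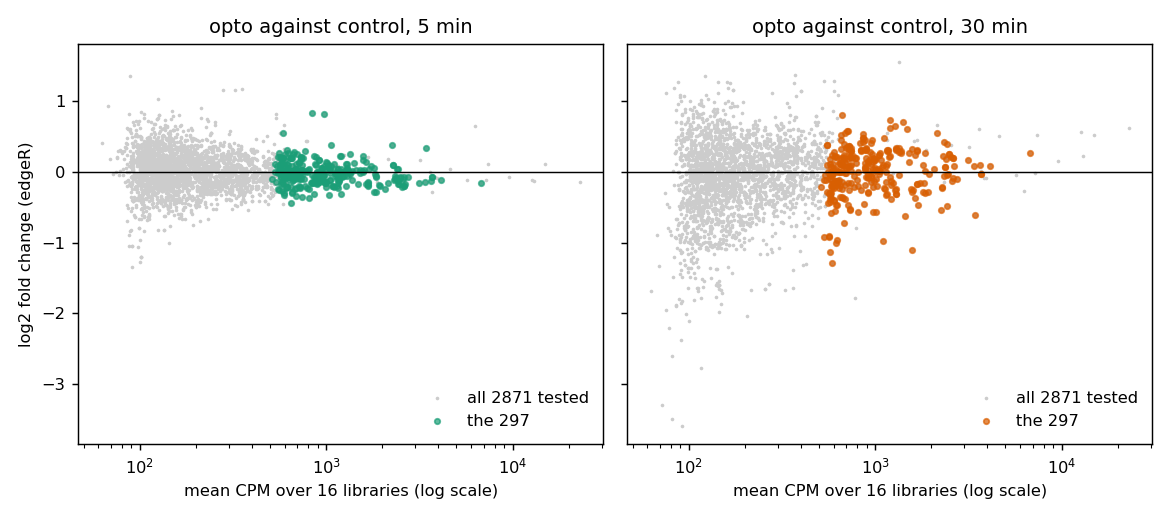
Log2 fold change of opto against control from edgeR at 5 min (left) and 30 min (right), against the mean CPM over the 16 Cre-positive libraries on a log scale, for all 2871 tested transcripts (grey) and the 297 (coloured). The 297 run from -0.45 to 0.82 at 5 min and from -1.30 to 0.80 at 30 min, and none passed the adjusted test at either time.

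A further test set the effect of activation at 30 min against its effect at 5 min, by subtracting the log2 fold change at 5 min. None of the 297 passed in edgeR, DESeq2 or limma, against 0.0348% of all tested, and the smallest adjusted p was 0.331. At an unadjusted p under 0.05, 27 of the 297 (9.09%) differed, 9 higher and 18 lower at 30 min, against 7.59% of all tested (2.72% higher and 4.88% lower), and 19 did in DESeq2, against 5.75%. Without opto 30 min replicate 1 there were 36, 17 higher and 19 lower, against 8.78% of all tested. Leaving out control 30 min replicate 1 gave 13, 2 higher and 11 lower (5.73% of all tested), and leaving out opto 5 min replicate 3 gave 15, 0 higher and 15 lower (6.10%). It was 15 without control 5 min replicate 4 (6.04%) and 17 without opto 5 min replicate 1 (6.54%). The replicate block gave 42, 20 higher and 22 lower, against 9.82% of all tested, with 5 of all tested and none of the 297 passing.

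ENSMUST00000174193 had the smallest p. Its log2 fold change of opto against control at 30 min, minus that at 5 min, was -1.83 (SE 0.55, edgeR adjusted p = 0.331). It had 968, 645, 297 and 445 CPM in the 30 min controls and 608, 246, 159 and 178 CPM in opto, on 5 to 13 tags. At 5 min it had 866, 189, 737 and 494 CPM in the controls and 1184, 1001, 920.3 and 468 CPM in opto. It was lower in 4 of 4 pairs at 30 min and higher in 3 of 4 at 5 min, and the groups overlapped at both times. The difference was -1.25 (SE 0.40, edgeR adjusted p = 0.350) for ENSMUST00000076623. For ENSMUST00000120129 it was 0.74 (SE 0.31, edgeR adjusted p = 0.614), or 0.49 without opto 30 min replicate 2. For ENSMUST00000046386, which had 0 noCre tags, it was 0.75 (SE 0.32, edgeR adjusted p = 0.614). With all libraries thinned to the depth of the shallowest, the differences were -0.50, 0.16 and 1.42 in the same order. ENSMUST00000046386 had 456, 746, 539.6 and 545 CPM in the 30 min controls and 532, 936, 805 and 821 CPM in opto at 30 min. At 5 min it had 592, 1058, 642 and 599 CPM in the controls and 580.4, 577, 434 and 612 CPM in opto. It was higher in 4 of 4 pairs at 30 min and in 1 of 4 at 5 min, with overlap at both times.

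The direction at the 2 times, which share no library, was the same in 113 of the 297 (38.0%), against 43.1% of all tested. The Pearson correlation of the fold changes over the 297 was -0.319; transcripts share libraries and are not independent, and this value is a description. The SD of the fold changes was 0.33 at 30 min and 0.16 at 5 min.

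The controls of the 2 times show how far these transcripts differ without activation. This comparison uses the control libraries of both comparisons above and is not independent of them. The labels mark the 5 min files as new, so time and deposit cannot be told apart. None of the 297 passed in edgeR, against 0.174% of all tested. At an unadjusted p under 0.05, 28 (9.43%) differed, 9 higher and 19 lower at 5 min, against 8.92% of all tested (3.9% higher and 5.02% lower). Without control 30 min replicate 1 there were 18, against 8.22%. The groups did not overlap in 15 (5.05%), against 5.22% of all tested. In DESeq2 none of the 297 passed and 25 had an unadjusted p under 0.05, against 6.51% of all tested; in limma with quality weights 1 passed, among 13 of all tested. ENSMUST00000189941 came nearest to passing. It had 1044, 948, 1674 and 1328 CPM in the 30 min controls and 452, 642, 546 and 677 CPM in the 5 min controls, with no overlap. The log2 fold change at 5 min was -1.14 (SE 0.27, edgeR adjusted p = 0.0820). Its adjusted p was 0.0128 when only the 8 control libraries were fitted with edgeR, and 0.0349 in edgeR without control 30 min replicate 2, and the alternatives (edgeR, DESeq2 and limma) spanned 0.0128 to 0.807. Its opto libraries had 1543 ± 810.2 CPM at 30 min and 645 ± 190.5 CPM at 5 min (SD, n = 4).

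ENSMUST00000187117 was also lower at 5 min, with 1177, 1095, 1256 and 1378 CPM in the 30 min controls and 469, 680.1, 614 and 853 CPM in the 5 min controls, with no overlap. Between the controls the log2 fold change was -0.92 (SE 0.27, edgeR adjusted p = 0.256), and its adjusted p was 0.0300 when only the 8 control libraries were fitted with edgeR. ENSMUST00000067538 had 475, 986, 1002 and 998 CPM in the 30 min controls and 1247, 1814, 1310 and 1354 CPM in the 5 min controls, again with no overlap. That gave a log2 fold change equal to 0.65 (SE 0.23, edgeR adjusted p = 0.315), and ENSMUST00000086828, which is in a near-identical set with it, gave 0.64 (SE 0.23, edgeR adjusted p = 0.326).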

How the data were processed

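The authors deposited whole-number counts of CLIP tags per transcript, a file for each of the 19 libraries, listing transcripts with at least 1 tag, per the file headers and values. Tags were cloned by BrdU-CLIP, per the labels' protocols, and the submitters' processing notes name cutadapt, STAR and mm10; the handling of duplicates, the annotation and the assignment of tags to isoforms are not given in the sources used here. A transcript not listed was taken as 0. The 16 Cre-positive libraries (20456 to 341445 tags) were fitted together, with a mean per group, in edgeR 4.0.16 (R 4.3.3) with TMM scaling, filterByExpr at its defaults (minimum count 10, minimum total 15) and the quasi-likelihood test, with Benjamini-Hochberg adjustment over all 2871 tested transcripts. The fit was also run on simulated data drawn from its own estimates of spread. Those data held no outlying library and no correlation between same-numbered libraries, so that run does not cover these features. Alternatives used DESeq2 1.42.0, limma 3.58.1 and those named in the closing section. Tables used Python 3.11.15. Intervals are 95% Wilson intervals, and limits for a count of 0 take 3 tags; both cover counting error only.

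Transcripts were named by a rule: the 6 with the most tags, for each contrast the 2 of lowest p on either side, those nearest the thresholds, and the lowest and highest spread. The pairs that illustrate near-identical counts and the extremes of 1 library were chosen after their values were seen. The members, the naming rule and the tests were chosen with earlier results of these data known. Gene lists and cell type markers could not be applied without gene names and were not analysed here.

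Same-numbered opto and control libraries deviated together from their group means, with correlations of 0.201 to 0.687 in all 8 pairs over transcripts averaging 50 or more tags, and 0.174 to 0.613 over the 297. Over all tested transcripts 4 of the 8 were under 0.1. The pairing comes from the data and not from the labels. Control libraries of the 2 times gave correlations of both signs, from -0.387 to 0.409 over the 297. They were paired by number only in the replicate block alternative. The 1 transcript of the 297 that passed there between the control times carries that limit.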

Additional observations from a re-analysis of the deposited data

Results flagged for a closer look

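In 104 groups of 4 libraries (26 values in 4 groups), a library stood apart by Dixon's criterion in 10. Chance gives about 1 in 20 only for independent values of equal spread. Near-identical transcripts, naming by p or spread, and unequal depth depart from that, so the rates cannot be compared. Opto 30 min replicate 1 was the library in 5 of them. It was high for ENSMUST00000090826 (6919 CPM, against 4208 to 4434 in the other 3), ENSMUST00000028525 (6158 against 3598 to 3991), ENSMUST00000173523 (2889 against 246 to 678) and ENSMUST00000161008 (912 against 640.5 to 678). It was low for ENSMUST00000041804 (152 against 500.1 to 571).

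Control 5 min replicate 2 was high for ENSMUST00000020706 (8615 CPM, against 5719 to 6010) and ENSMUST00000046386 (1058 against 592 to 642). Control 30 min replicate 1 was low for ENSMUST00000067538 (475 CPM, against 986 to 1002) and ENSMUST00000086828 (475 against 986 to 998), which have nearly the same counts. Control 30 min replicate 3 was low for ENSMUST00000111838 (308 CPM, against 475 to 495). Opto 30 min replicate 1, control 5 min replicate 2 and control 30 min replicate 1 are the shallowest libraries of their groups.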

How the results depend on the processing

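No alternative made any of the tested members of the 297 pass at 30 min, at 5 min or in the difference of the times, whether with other scaling, filters, thinned counts (283 of the 297 tested), library depth as a covariate, fits of the contrast alone (not run for the difference, which uses all groups), the replicate block, DESeq2, limma or each library left out in turn. Between the control times 2 passed when only the control libraries were fitted (18 of the 3095 tested), 1 with library depth as a covariate (9 of all tested), 1 in limma with quality weights (13) and 1 with the replicate block (8), and 0 to 1 when a library was left out (1 without control 30 min replicate 2). The replicate block changed no other call. The median log2 fold change moved to -0.30 at 30 min and to -0.25 for the difference of the times with no filter beyond 1 tag, where the median of all transcripts was -0.24 at 30 min and -0.58 for the difference; at 30 min 53 of the 297 then had an unadjusted p under 0.05, 0 of them higher, against 3.62% of all 49900. With library depth as a covariate that count was 16 at 30 min (4.91% of all tested) and 14 for the difference of the times (6.30%). On thinned counts it was 17, 15 and 10 at 30 min, for the difference and between controls (7.44%, 5.23% and 4.41% of the 363 tested), and 7 at 5 min (2.20%). It was 43 for the difference in limma with a random block (10.7%), 18 between controls with no filter (4.42%), and at 5 min 0 at a mean of at least 20 tags (0.855%) and 1 in either limma fit (3.80% and 4.08%). With the tags of the tested transcripts as the denominator the mean share was 33.3% in controls and 32.5% in opto at 30 min, and 33.2% and 32.4% at 5 min. With near-identical transcripts kept once, an alternative chosen after seeing the data, it was 17.2%, 17.5%, 16.9% and 16.3% in the same order. The ratio of the noCre share to the Cre-positive share ran from 0.502 to 1.15 when a noCre library was left out. The log2 fold changes of the transcripts chosen by smallest p, and that of ENSMUST00000080210 at 30 min, kept their sign in every alternative run for them; those of the other named transcripts were not recomputed. Depth limits the 30 min opto group most, with a median of 10 tags per transcript in its shallowest library.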
